A study of Mus musculus with 4 samples.

Results

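The non-clustered delta protocadherins are 9 genes (Pcdh1, Pcdh7, Pcdh8, Pcdh9, Pcdh10, Pcdh17, Pcdh18, Pcdh19 and Pcdh20) of the 49997 gene rows in each deposited table. They were taken by symbol, as the relatives of Pcdh10, a gene known beforehand to be lower in the neuron libraries of this series. The question put to the data was whether that lower level is shared by the relatives, and whether it is shared in each replicate pair. Because the contrast between neurons and proliferating cells chose the gene at the centre of the set, the differences of the members in that contrast are given as descriptions without a test.

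Sequencing of total RNA depleted of ribosomal RNA gave 4 libraries of iMOP cells, 2 biological replicates per group. iMOPs are mouse progenitors of the inner ear that were immortalized as a line and can form neurons, so all 4 libraries come from 1 wild-type line. The proliferating cultures grew in DMEM/F12 with B27, carbenicillin and bFGF at 20 ng/ml. The neuron cultures grew in Neurobasal medium with N21, L-glutamine and 1 µM of the CDK2 inhibitor K03861, and the labels do not give how long they were kept there. The proliferating cultures carry the growth factor and the neuron cultures the kinase inhibitor, so medium, inhibitor and differentiation cannot be told apart.

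Protocadherins are single-pass membrane proteins whose extracellular cadherin repeats bind like molecules on neighbouring cells. The clustered genes are switched on in combinations by promoter choice, whereas the delta protocadherins are separate genes, each with its own promoter, that mark regions and cell groups of the developing nervous system. The delta-1 members (Pcdh1, Pcdh7 and Pcdh9 here) have longer extracellular parts than the delta-2 members (Pcdh8, Pcdh10, Pcdh17, Pcdh18 and Pcdh19), and their cytoplasmic tails carry a motif that binds protein phosphatase 1. The tails of several delta-2 members recruit the WAVE complex, which drives branched actin assembly. Pcdh20 lies outside both subfamilies.

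The libraries held 7446361 to 14484011 counts, of which 18S ribosomal RNA took 53.3% to 76.1%, leaving 2595578 to 3850766 counts for other genes. Proliferating replicate 2 stood apart, with the fewest counts outside 18S and 17762 genes detected against 20012 to 21637 in the others. Neuron and proliferation markers did not separate the groups as their names would have it. The summed level of 12 neuron markers was 164 and 350 CPM (the count relative to the library size after TMM scaling) in proliferating replicates 1 and 2, and 203 and 368 CPM in neuron replicates 1 and 2. For 8 proliferation markers the values in the same order were 335, 84.3, 422 and 247 CPM. The 8 otic progenitor markers summed to 78.3 and 111 CPM in proliferating cells and 70.2 and 32.7 CPM in neurons, lower in neurons without overlap, with Pax2 and Pax8 at 0 counts in every library. Sox2 and Sox9 made up most of that sum, and the genes did not move together. Sox9 was lower in neurons in both replicate pairs and Eya1 higher in both, while Sox2 was higher in replicate 1 and lower in replicate 2. The label neuron is therefore used below as the name of a culture condition.

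The members lie apart from each other and mostly in gene-poor stretches (RefSeq, GRCm38.p6, the mm10 assembly). Pcdh10 lies on chromosome 3 from 45378398 to 45434579 and Pcdh18 on the same chromosome from 49743291 to 49757383, 4.31 Mb away, with Pabpc4l as the only protein-coding gene between them. Pcdh8 (79766772 to 79771312), Pcdh17 (84443563 to 84537565), Pcdh20 (88464743 to 88471396) and Pcdh9 (93013700 to 93892834) all lie on chromosome 14. Pcdh7 lies on chromosome 5 from 57716145 to 58133236 with no other protein-coding gene within 3595 kb, and Pcdh19 lies on X from 133582860 to 133689044. Their genomic lengths run from 4.5 kb for Pcdh8 to 879 kb for Pcdh9.

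The 250 bases before the first listed RefSeq start are shown for Pcdh10 and Pcdh8, the members with the lowest and the highest log2 fold change, 5′ to 3′ on the strand of the gene. Motifs were searched in the RefSeq windows (GRCm38.p6) of 8 of the 9 members. Pcdh1 was left out of this search, so whether it carries the motifs below was not tested. Capitals mark motifs searched on both strands, which for Pcdh10 are a GC box, the core of a cyclic AMP response element and a CCAAT box, and for Pcdh8 a CCAAT box and a TATA box. Pcdh10 is at chr3:45378148-45378397 on the plus strand and Pcdh8 at chr14:79771313-79771562 on the minus strand.
Pcdh10: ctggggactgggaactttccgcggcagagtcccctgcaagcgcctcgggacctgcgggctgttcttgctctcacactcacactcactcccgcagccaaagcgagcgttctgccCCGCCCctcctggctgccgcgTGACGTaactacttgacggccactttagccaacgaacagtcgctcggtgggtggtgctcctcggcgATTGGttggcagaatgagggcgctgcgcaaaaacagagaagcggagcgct
Pcdh8: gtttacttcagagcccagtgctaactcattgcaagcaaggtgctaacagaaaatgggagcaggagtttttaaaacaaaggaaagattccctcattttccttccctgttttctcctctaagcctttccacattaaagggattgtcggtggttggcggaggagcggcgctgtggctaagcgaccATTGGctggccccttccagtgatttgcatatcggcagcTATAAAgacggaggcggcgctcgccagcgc

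The CCAAT box, the site of the factor NF-Y, was the feature these windows had in common. CCAAT, or its reverse complement ATTGG, was found in 7 of the 8 windows (Pcdh7 was the exception) and in 34.5% of 27025 RefSeq promoters, each scanned over the same 250 bases before its start. All 5 delta-2 genes carried it in the ATTGG orientation at 32 to 68 bases before the listed start, with Pcdh17 holding another copy further upstream. The stretches around it are shown for these 5 genes, with the box in capitals, because the bases after it are also alike. The listed start of Pcdh19 lies 51 bases, and that of Pcdh18 67 bases, inside the gene's outer limit. The Pcdh18 box, 32 bases before its listed start, therefore lies inside that gene's outer limit and not upstream of it.
Pcdh8 (chr14:79771364-79771392): ggctaagcgaccATTGGctggccccttcc
Pcdh10 (chr3:45378336-45378364): tgctcctcggcgATTGGttggcagaatga
Pcdh17 (chr14:84443493-84443521): ctccccacgccgATTGGctggcagagaat
Pcdh18 (chr3:49757332-49757360): ggaagctcgctgATTGGctggaagcgatt
Pcdh19 (chrX:133689042-133689070): ggctgcgcgctgATTGGctagtgcctggc
The string ATTGGNTNG, read off these 5 sequences and overlapping the CCAAT box by design, occurred in 5 of 5 delta-2 windows, in 0 of 2 delta-1 windows and in 3.9% of all promoters, or 5.18% of the 9320 with a CpG content over 0.6 of that expected from their bases. Other motifs were less shared. TATAAA was found only for Pcdh8 (13% of all promoters), TGACGT only for Pcdh10 (6.56%), GGGCGG for Pcdh10, Pcdh17, Pcdh18 and Pcdh19 (32.9%), and the E box CACGTG for 0 of 8 (6.05%). The windows of Pcdh7 and Pcdh9 belong to starts 1.9 kb and 2.2 kb inside the outer limits of these genes, so their outermost starts were not searched. These matches describe the letters of the windows, and binding was not measured.

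Pcdh10, which guides axons in the forebrain and takes part in the removal of synapses, had 258 and 73 counts in proliferating replicates 1 and 2, and 9 and 18 counts in neuron replicates 1 and 2. Both neuron libraries were below both proliferating libraries. In scaled units these are 21.2 and 9.88 CPM against 0.757 and 1.83 CPM, with means of 15.5 ± 8.0 and 1.3 ± 0.762 CPM (SD, n = 2 each). The log2 fold change, neurons minus proliferating, was -3.59 (SE 0.69). Within replicate 1 the level was 28-fold lower in neurons (95% counting interval 14.5 to 61.9), and within replicate 2 it was 5.39-fold lower (3.18 to 9.59). These intervals cover counting error only and leave out the spread between cultures. In these bulk libraries fewer cells with the transcript and less transcript per cell cannot be told apart.

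**Figure D1:**
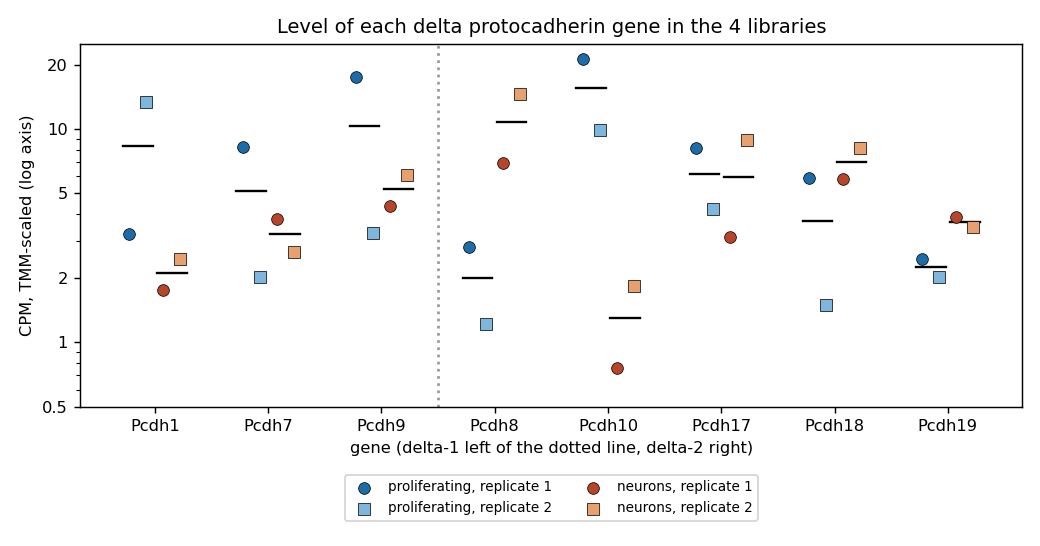
Level of the 8 detected members in each library, in TMM-scaled CPM on a log axis. Circles are replicate 1, squares replicate 2, blue points proliferating cells, red and orange points neurons, and black bars the group means. The groups do not overlap for Pcdh1 and Pcdh10 (neurons lower) or for Pcdh8 and Pcdh19 (neurons higher), and Pcdh20 had 0 counts and is not drawn.

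The lower level of Pcdh10 was shared in both pairs by Pcdh1 alone of the 8 members that passed the filter on low counts. Pcdh1 lies on chromosome 18 from 38185914 to 38212048 and is a delta-1 member best known from airway epithelium. It had 39 and 99 counts in the proliferating libraries and 21 and 24 in the neuron libraries. Both neuron libraries were below both proliferating libraries. Pcdh1 was 1.81-fold lower in neurons in replicate 1 (counting interval 1.04 to 3.25) and 5.48-fold lower in replicate 2 (3.48 to 8.95). Its log2 fold change was -1.96 (SE 0.75), and -0.61 without proliferating replicate 2, the library in which it stood at 13.4 CPM against 1.77 to 3.20 CPM in the other 3. Thus 2 members were lower in neurons without overlap of the groups, where 14.5% of the 12783 tested genes were, and lower in both pairs, where 25.5% of the tested genes were. Nothing is read from these shares, since the contrast chose Pcdh10.

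Pcdh8 went the other way. Pcdh8, also called arcadlin, is induced by neuronal activity and takes N-cadherin off the synaptic surface through the kinase TAOK2. It had 34 and 9 counts in the proliferating libraries and 82 and 143 in the neuron libraries, or 2.79 and 1.22 CPM against 6.90 and 14.6 CPM. Both neuron libraries were above both proliferating ones. It was 2.47-fold higher in neurons in replicate 1 (counting interval 1.64 to 3.80) and 12-fold higher in replicate 2 (6.13 to 26.7), with a log2 fold change of 2.38 (SE 0.65). Pcdh19, the gene of an X-linked epilepsy and a binding partner of N-cadherin, also did not overlap between groups. It had 30 and 15 counts in proliferating cells and 46 and 34 in neurons. The ratios of 1.57 (0.970 to 2.58) and 1.71 (0.905 to 3.37) were alike in the pairs, but each counting interval included 1. Its log2 fold change was 0.70 (SE 0.55). Higher levels without overlap were thus found for 2 members, where 12.9% of tested genes had them, and 28.8% of tested genes were higher in both pairs.

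The 4 other detected members pointed in opposite directions in the pairs, as 45.7% of all tested genes did. Pcdh9, a delta-1 gene of cortical and sensory circuits, had 213 and 24 counts in proliferating cells and 52 and 60 in neurons. It was 4.0-fold lower in neurons in replicate 1 (counting interval 2.94 to 5.53) and 1.88-fold higher in replicate 2 (1.16 to 3.16). Pcdh17, a delta-2 gene of corticobasal synapses and axon extension, had 99 and 31 counts in proliferating cells and 37 and 87 in neurons. It was 2.61-fold lower in replicate 1 (1.77 to 3.92) and 2.11-fold higher in replicate 2 (1.39 to 3.30). For both genes the 2 counting intervals lay on opposite sides of 1.

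Pcdh7, the third delta-1 member, had 100 and 15 counts in proliferating cells and 45 and 26 in neurons, 2.17-fold lower in replicate 1 (1.51 to 3.16) with a ratio of 1.31 in replicate 2 (0.666 to 2.65). Pcdh18, a delta-2 member that binds the reelin adaptor Dab1, had 72 and 11 counts in proliferating cells and 69 and 80 in neurons. Its ratio was 0.981 in replicate 1 (0.695 to 1.38) and 5.48 in replicate 2 (2.90 to 11.4). The fitted log2 fold changes of these genes averaged over opposite or unequal pairs. They were -0.69 (SE 0.72) for Pcdh7, -1.0 (SE 0.77) for Pcdh9, -0.06 (SE 0.65) for Pcdh17 and 0.88 (SE 0.69) for Pcdh18. Without proliferating replicate 1 they were 0.64 for Pcdh7, 0.66 for Pcdh9, 0.47 for Pcdh17 and 2.19 for Pcdh18. Without proliferating replicate 2 the value of Pcdh18 was 0.24 and those of Pcdh7 and Pcdh9 were -1.35 and -1.74.

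**Figure D2:**
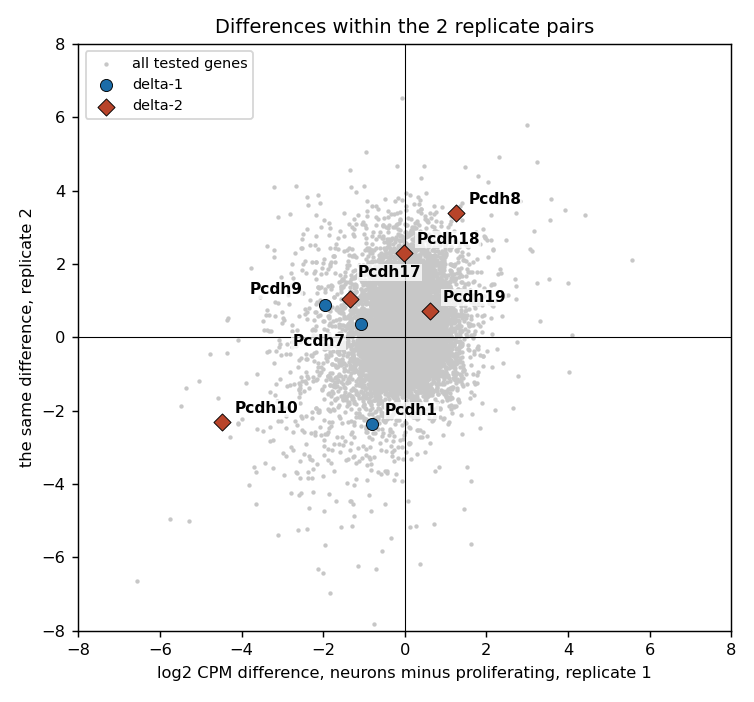
Difference of log2 CPM between neurons and proliferating cells within replicate 1 (horizontal) and within replicate 2 (vertical). Grey points are all 12783 tested genes, blue circles delta-1 and red diamonds delta-2 members. Pcdh10 and Pcdh1 lie in the lower left, Pcdh8 and Pcdh19 in the upper right, and Pcdh7, Pcdh9, Pcdh17 and Pcdh18 to the left of 0 but above it.

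Counted by pair, most members pointed down in replicate 1 and up in replicate 2. In replicate 1, 6 of 8 members were lower in neurons (50% of all tested genes were), with a median log2 difference of -0.94. Pcdh18 was among them with a ratio of 0.981 (counting interval 0.695 to 1.38), so its direction there was within counting error. In replicate 2, 2 of 8 were lower (46.7% of tested genes) and 6 of 8 were higher (53.3%), with a median of 0.80. The medians of all tested genes were -4.19e-05 and 0.07. The differences in the 2 pairs lay at least 2 apart on the log2 scale for 5 members (Pcdh8, Pcdh9, Pcdh10, Pcdh17 and Pcdh18), against 9.27% of tested genes. That share covers genes at all levels, while Pcdh10, Pcdh8 and Pcdh18 had as few as 9, 9 and 11 counts in a library. A share among genes of like counts was not computed. Every replicate 2 difference also rests on proliferating replicate 2, the library that stood apart. The number of members is therefore not read as a trait of the family. Pcdh10 was the member at least 2-fold lower in both pairs (2.43% of tested genes) and Pcdh8 the member at least 2-fold higher in both (1.62%).

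By TMM-scaled CPM, 5 members (Pcdh7, Pcdh8, Pcdh9, Pcdh10 and Pcdh18) were at least 2-fold lower in proliferating replicate 2 than in proliferating replicate 1, as were 24.5% of tested genes. Pcdh1 was 4.18-fold higher there (counting interval 2.86 to 6.22). By the deposited RPKM, Pcdh17 (0.217 and 0.0489 in proliferating replicates 1 and 2) and Pcdh19 also passed 2-fold lower. Pcdh1 stood at 0.113 and 0.207 RPKM in these libraries, a smaller rise. On the TMM scale a lower level in proliferating replicate 2 exceeded counting error in 6 members, among them Pcdh9 at 5.39-fold (3.52 to 8.59) and Pcdh7 at 4.05-fold (2.34 to 7.5). The share of all tested genes beyond counting error was not computed, here or for the neurons below. These counts of members therefore have no baseline and are not read as a trait of the family. Between the neuron replicates no member was 2-fold lower in replicate 2 on this scale (10.1% of tested genes were), and 4 were higher beyond counting error. The largest ratio was that of Pcdh17 at 2.85-fold (1.92 to 4.31), followed by Pcdh10 at 2.42-fold (1.03 to 6.12), Pcdh8 at 2.11-fold (1.60 to 2.81) and Pcdh18 at 1.41-fold (1.01 to 1.97). On this scale Pcdh19 was the steadiest member, with ratios of 0.824 and 0.896 between replicates. By the deposited RPKM, scaled by the library total, Pcdh19 was lower in replicate 2 in both groups. It stood at 0.0705 and 0.0253 RPKM in proliferating replicates 1 and 2, and 0.0850 and 0.0411 in neuron replicates 1 and 2. Pcdh7 (0.0362 and 0.0137) and Pcdh18 (0.700 and 0.531) were also lower in neuron replicate 2 by RPKM. So were Pcdh1 and Pcdh9, while Pcdh8, Pcdh10 and Pcdh17 stayed higher.

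The difference between the replicate numbers was tested, since the choice of the genes did not use it. In edgeR's quasi-likelihood test with the group as a block, 0 of 8 members and 0 of 12783 genes (0%) had a Benjamini-Hochberg adjusted p-value under 0.05. Without adjustment, 1558 genes (12.2%; 8.63% lower and 3.56% higher in replicate 2) passed 0.05, among them 1 member, Pcdh1, which was higher in replicate 2 with a log2 fold change of 1.32 (SE 0.59, edgeR adjusted p = 0.404, unadjusted p = 0.0477). In neurons the TMM-scaled level was 1.77 CPM in replicate 1 and 2.45 CPM in replicate 2 (ratio 1.39, counting interval 0.739 to 2.62), while the deposited RPKM was 0.0480 and 0.0359, so the direction there depended on the scaling. The adjusted p-values of the other 7 members lay between 0.419 for Pcdh7 and 0.949 for Pcdh8. DESeq2 called 74 genes (0.579%) and 0 members.

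**Figure D3:**
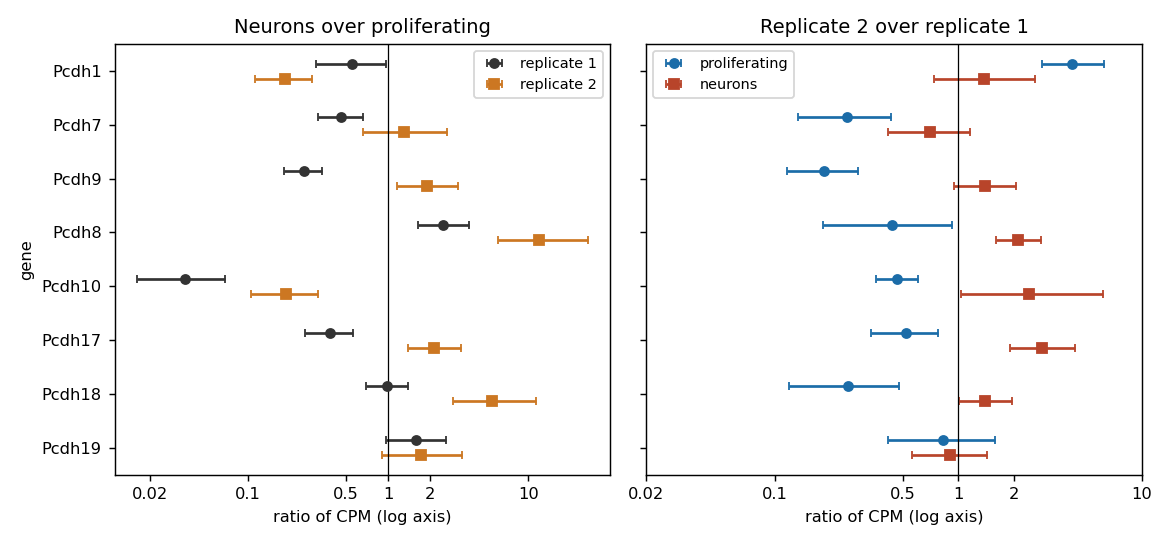
Ratios of CPM for each member on a log axis, with 95% counting intervals as bars. On the left, neurons over proliferating cells in replicate 1 (dark circles) and replicate 2 (orange squares); on the right, replicate 2 over replicate 1 in proliferating cells (blue circles) and neurons (red squares). In proliferating cells 6 members lie below 1 with their interval and Pcdh1 above it.

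The make-up of the family's own counts, which needs no scaling between libraries, gave shares without overlap between the groups for Pcdh10, Pcdh8, Pcdh18 and Pcdh19. Shares within a library add up to the whole, so a lower share of Pcdh10 by itself raises those of the others. Pcdh10 held 30.5% of the 845 member counts in proliferating replicate 1 (95% Wilson interval 27.5% to 33.7%) and 26.4% of the 277 in replicate 2 (21.5% to 31.8%). In neurons it held 2.49% of 361 counts in replicate 1 (1.32% to 4.67%) and 3.81% of 472 in replicate 2 (2.43% to 5.95%). Pcdh8 held 4.02% (2.89% to 5.57%) and 3.25% (1.72% to 6.06%) in proliferating cells, and 22.7% (18.7% to 27.3%) and 30.3% (26.3% to 34.6%) in neurons. For both genes the shares of the 2 replicates of a group lay close together, and the groups were far apart. Pcdh1 did not behave so: its share was 35.7% in proliferating replicate 2 (30.3% to 41.5%) and 4.62%, 5.82% and 5.08% in proliferating replicate 1 and neuron replicates 1 and 2. Pcdh18 held 8.52% and 3.97% in proliferating cells and 19.1% and 16.9% in neurons, although its groups overlapped in CPM. Pcdh19 held 3.55% and 5.42% in proliferating cells and 12.7% and 7.2% in neurons, with intervals that overlap between the groups. The summed level of all members was 69.4 and 37.5 CPM in proliferating cells and 30.4 and 48.1 CPM in neurons, so the groups overlapped in the total.

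**Figure D4:**
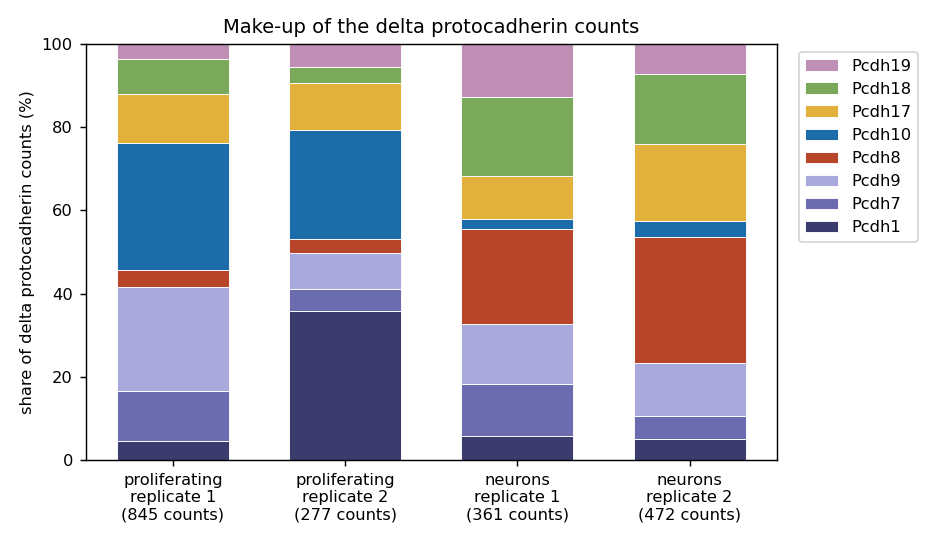
Share of each gene in the delta protocadherin counts of a library, in percent, with the number of counts under each bar. The Pcdh10 band covers 30.5% and 26.4% in proliferating cells and 2.49% and 3.81% in neurons, while the Pcdh8 band covers 4.02% and 3.25%, then 22.7% and 30.3%.

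Levels of different genes were compared per length, on 2 scales. By the deposited RPKM (reads relative to gene length and library total), Pcdh10 was the highest member in proliferating cells, with 1.49 and 0.303 RPKM in replicates 1 and 2, followed by Pcdh18 (0.929 and 0.102) and Pcdh8 (0.592 and 0.112). In neurons the order began with Pcdh8 (1.12 and 1.28 RPKM) and Pcdh18 (0.700 and 0.531), and Pcdh10 ranked 5 with 0.0409 and 0.0536 RPKM. The spread of replicates exceeded the steps between neighbours in proliferating cells, whereas in neurons Pcdh8 lay above Pcdh18, and Pcdh18 above the rest, without overlap of their replicates. The length behind the RPKM of Pcdh9 was 161190 bases, 23.8 times its merged GENCODE exons (6783 bases), and that of Pcdh10 was 1.46 times (23199 against 15888 bases). Per kilobase of merged exons, Pcdh9 had the highest mean in proliferating cells, with 2.58 and 0.479 CPM per kilobase in replicates 1 and 2, against 1.33 and 0.622 for Pcdh10 and 0.364 and 1.52 for Pcdh1. Pcdh9 thus led in replicate 1 and Pcdh1 in replicate 2. In neurons Pcdh8 (1.52 and 3.21) and Pcdh18 (1.08 and 1.52) again led, the lower Pcdh8 value equalling the upper Pcdh18 value to 3 digits, and Pcdh10 was the lowest detected member (0.0476 and 0.115). The order in proliferating cells therefore depended on the length used and on the replicate, and the leading pair in neurons did not.

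**Figure D5:**
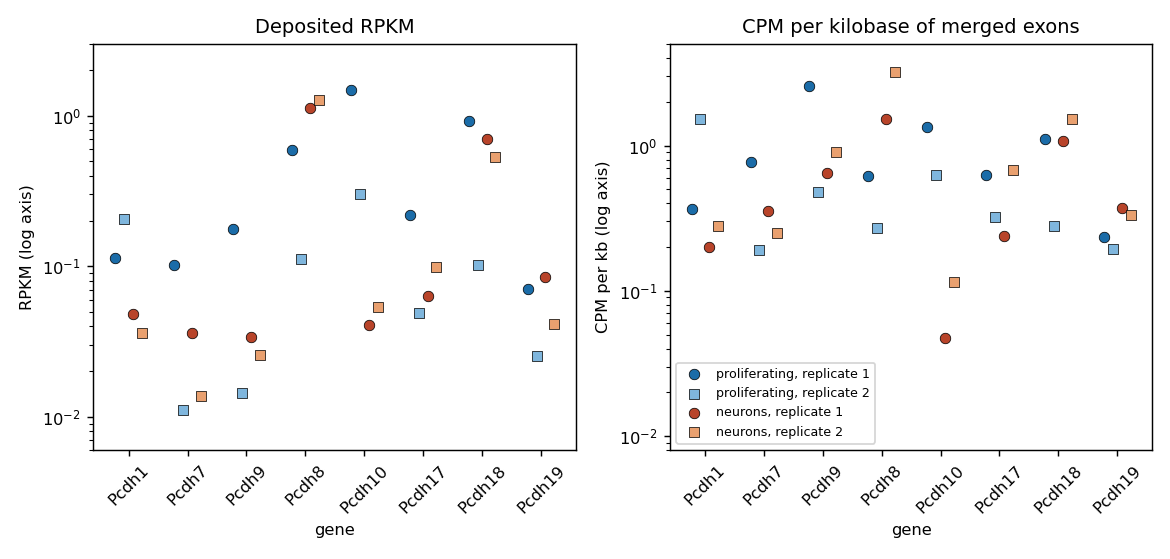
Level of the 8 detected members per length, on log axes, as deposited RPKM (left) and as CPM per kilobase of merged GENCODE exons (right), for each library. Pcdh8 and Pcdh18 lead in neurons on both scales, and Pcdh10 is the lowest gene in neurons on the right.

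Pcdh20 had 0 counts in all 4 libraries. An undetected gene may still lie below 3 counts, which is 0.247 to 0.406 CPM per library, so the gene was not detected at this depth. Pcdh11x, the remaining delta-1 gene, was outside the chosen set and did not pass the filter, with 26 and 5 counts in proliferating cells and 7 and 2 in neurons. Of the genes that overlap the members, Gm9247 at Pcdh9 held the most, with 17 and 13 counts in proliferating cells and 2 and 10 in neurons. In proliferating replicate 2 its 13 counts stand beside 24 for Pcdh9. 1700027H10Rik at Pcdh10 had 3 counts in proliferating replicate 1 and 0 elsewhere, and 9630013A20Rik at Pcdh17 had 8, 0, 5 and 3. How strand was used in counting is not given in the sources used here, so reads of overlapping genes could not be told apart.

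Among the 12782 other tested genes, the profiles nearest to Pcdh10 over the 4 libraries (Euclidean distance of centred log2 CPM) were those of Cryab (0.369), Vwa5a (0.373), Ntrk2 (0.414), Ppp1r3c (0.859) and Cav2 (0.869). Cryab had 44 and 13 counts in proliferating cells and 0 and 1 in neurons, and Vwa5a 55 and 21 against 1 and 4. The prior count of 2 compresses differences at such counts. The fitted log2 fold change of Cryab was -5.53, against -3.59 for Pcdh10. Ntrk2, the receptor for BDNF, had 890 and 241 counts in proliferating cells and 49 and 61 in neurons. The nearest relative, Pcdh1, was at 2.88 and ranked 757 by likeness, and Pcdh8 at 5.72 ranked 12704. Of the members among themselves, Pcdh7 and Pcdh9 were closest (0.762), and Pcdh8 and Pcdh10 farthest apart.

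Glial markers were also lower in neurons. The summed level of 8 of them, of which 0 were undetected, was 163 and 170 CPM in proliferating cells and 68.9 and 18.7 CPM in neurons. Gfap had 181 and 89 counts against 1 and 2. Olig2, with 48 and 445 counts against 10 and 5, was highest in the library in which Pcdh1 was highest. Mesenchymal markers summed to 10.9 and 10.2 CPM in proliferating cells and 17.8 and 8.46 CPM in neurons, with Col1a2, Pdgfrb and Dcn at 0 counts throughout. Vascular and blood markers stayed at 0.816 to 2.05 CPM, with Ptprc and Hbb-bs at 0. The part of glial cells or of glial gene expression in the levels of Pcdh10 and Pcdh1 was not tested.

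The RNA of genes whose proteins work with delta protocadherins, and of related cadherins, was compared in edgeR's quasi-likelihood test. No protein was measured. In this test 0 of 12783 genes had an adjusted p-value under 0.05 in either direction (0%). An unadjusted one under 0.05 was found for 438 genes (3.43%), 2.51% lower and 0.915% higher in neurons. DESeq2 called 59 genes (0.462%), and edgeR with the replicate number as a block called 3 (0.0235%). No call is given for the delta protocadherins in this contrast, which chose them. The median log2 fold change of all tested genes was 0.02, with 48% lower. The list of classic and related cadherins includes N-cadherin, the 1 named above as a partner of Pcdh8 and Pcdh19. It had 7 of 17 genes tested. Of these, 6 had a negative log2 fold change, 4 were lower in both pairs and 4 had an unadjusted edgeR p-value under 0.05, all lower. Their median was -1.73. N-cadherin (Cdh2), with 392 and 297 counts in proliferating cells and 474 and 398 in neurons, had a log2 fold change of 0.15 (SE 0.44). The 4 genes lower in both pairs were Cdh4, Cdh6, Cdh13 and Cdh22, and Cdh22 was the gene of this list that DESeq2 called (27 and 84 counts against 0 and 7, DESeq2 adjusted p = 0.0349, edgeR adjusted p = 0.9998).

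The catenins that tie classic cadherins to actin had a median of -0.24 over 6 of 6 tested genes, 5 of them negative, and beta-catenin (Ctnnb1) had a log2 fold change of -0.47 (SE 0.43). The WAVE complex, the effector of delta-2 tails, had a median of -0.06 over 9 of 9 genes, 5 negative and 4 positive. Nckap1, the subunit that Pcdh10 was found to bind, had 569 and 136 counts in proliferating cells and 390 and 361 in neurons, a log2 fold change of 0.09 (SE 0.55). Cyfip2, a subunit abundant in neurons, was the exception in the list, with 28 and 58 counts against 97 and 577, a log2 fold change of 2.74 (SE 1.00, edgeR adjusted p = 0.9998, unadjusted p = 0.0273). Of the other partners, 8 of 8 were tested, with a median of -0.22. The phosphatase gene Ppp1ca, Taok2 and the Pcdh10 regulators Mef2a, Mef2c and Mef2d had log2 fold changes between -0.40 and -0.18. Outside this range lay Mdm2 (0.54), the ubiquitin ligase that acts on PSD-95 and was higher in both pairs, Fmr1 (0.40), and Dlg4 (-0.60), the gene of PSD-95, which was lower in both pairs. The large atypical cadherins and other protocadherins outside the clusters had a median of 0.12 over 9 of 13 tested genes, with 5 positive and 4 negative. In these 4 lists (catenins, WAVE complex, other partners, other cadherins) 0 genes were called by edgeR or DESeq2, and 1, Cyfip2, had an unadjusted edgeR p-value under 0.05.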

How the data were processed

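For each of the 4 libraries the authors deposited 1 table of counts and 1 of RPKM. Per the submitters' processing notes, HISAT2, SAMtools, featureCounts, DESeq2 and deepTools 3.4.3 were used with mm10, and the annotation and strand setting are not given in the sources used here. Each deposited RPKM equals the count divided by the column total and 1 length per gene, which for Pcdh9 is 23.8 times its merged GENCODE exons.

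Groups and replicate numbers came from the sample titles. The counts were analysed with edgeR 4.0.16 (R 4.3.3): filterByExpr (minimum count 10, minimum total 15), TMM factors, glmQLFit and glmQLFTest, group as the only term, Benjamini-Hochberg adjustment over 12783 genes, two-sided, threshold 0.05. CPM use TMM-scaled library sizes, and differences within a pair are log2 CPM with a prior count of 2. The TMM factors were 1.64 and 0.713 for proliferating replicates 1 and 2, and 1.26 and 0.678 for neuron replicates 1 and 2. With 2 libraries a group, the tests set each difference against the spread between these cultures, with dispersions shared in part across genes. The SE given with an edgeR log2 fold change is its absolute value divided by the square root of the F statistic. Counting intervals are exact binomial intervals of the ratio at 95%, and reads without molecular identifiers are not independent molecules. DESeq2 1.42.0 and limma 3.58.1 on log2(RPKM + 1) and log2(RPKM + 0.1) were alternatives, with other scalings and filters, a block for the replicate number, and omission of single libraries. The fits were tested on simulated counts.

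Both replicate 2 titles carry the words set 2, from which the pairing was taken. Libraries with the same number deviated together from their groups (r = 0.33 over genes). The members, the gene lists and the rule for named genes (members, list genes and the 5 profiles nearest to Pcdh10) were chosen with earlier results of these data known, and the promoter motifs after the sequences were seen.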

Additional observations from a re-analysis of the deposited data

How the results depend on the processing

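The count of members with a negative log2 fold change, 5 of 8, was the same with the replicate block, every scaling, filter and unit tried and DESeq2, and was 2 to 5 when single libraries were left out, with 2 reached without proliferating replicate 1. The members lower in both pairs were 2 under every scaling tried, and those higher in both were 2, or 3 with RLE size factors. Directions reversed for 3 genes: Pcdh7 (0.64), Pcdh9 (0.66) and Pcdh17 (0.47) without proliferating replicate 1, and Pcdh17 (0.48) without neuron replicate 1. The ranges over libraries left out ran from -1.35 for Pcdh7, -1.74 for Pcdh9 and -0.99 for Pcdh17 up to those values. Pcdh10 ranged from -4.34 to -0.78 over 13 alternatives, and Pcdh8 from 0.72 to 3.09, the values nearest 0 being on the log2(RPKM + 1) scale, which compresses low levels. Library size alone moved the median of all genes from 0.02 to -0.27, and log2(RPKM + 0.1) moved it to -0.15.

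Genes called in neurons against proliferating cells were 0 each way in the main analysis. They were 3 lower with the replicate block, 2 lower with library size alone, 41 higher and 122 lower without a gene filter, 12 higher and 47 lower with DESeq2, and 1 and 2 lower on the log2(RPKM + 1) and log2(RPKM + 0.1) scales. Leaving out a library gave 1 to 37 higher and 9 to 90 lower, with the lone library of a group assumed to vary like the other group. Calls of replicate 2 against replicate 1 were 1 higher and 5 lower with RLE size factors, 88 and 207 without a filter, 24 and 50 with DESeq2, and 13 and 3197 or 12 and 3090 on the log2(RPKM + 1) or log2(RPKM + 0.1) scale. In this comparison the median log2 fold change of all genes was 0.006 in the main analysis, and -0.34 and -0.79 on these RPKM scales. It was -1.04 with library size alone, where 0 genes were called each way. The RPKM are scaled by the library total. Of that total, 18S took a larger share in both replicate 2 libraries than in both replicate 1 libraries. The cause of the differences in calls was not tested. The comparison of replicate 2 with replicate 1 has no residual degrees of freedom once a library is dropped, so this was not run. Per length, the use of merged GENCODE exons was chosen after seeing the data.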

Other observations

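Pabpc4l, a poly(A)-binding protein gene and the only protein-coding gene between Pcdh10 and Pcdh18, had 15 and 1 counts in proliferating cells and 41 and 13 in neurons, a log2 fold change of 1.70. Beyond Pcdh18, the cystine transporter gene Slc7a11 had 98 and 16 counts in proliferating cells and 100 and 21 in neurons, a log2 fold change of 0.03. On chromosome 14, Olfm4, which lies between Pcdh8 and Pcdh17, had 2 and 2 counts in proliferating cells and 68 and 7 in neurons. Diaph3, the protein-coding gene after Pcdh17, had 223 and 19 counts against 147 and 85, with proliferating replicate 2 again the lowest library. These flanking genes were chosen by position, and their values have no test here.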
